A study of Homo sapiens with 6 samples.

Results

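The 10 genes described here act where the mevalonate pathway splits into coenzyme Q and dolichol: PDSS1, PDSS2, COQ2, COQ3, COQ5, COQ6, COQ7, COQ9, DHDDS and NUS1. They were taken by gene symbol from the deposited Clariom D array values, which carry 81496 symbols, and each of the 10 had 1 probe set. None of the 10 passed an FDR of 5% between the fluvastatin-resistant and the parental cells. HMGCS1 and MVD, of the mevalonate trunk that feeds this branch, passed and were higher in the resistant cells. That fit tested 6 of the 10 after filters, and the smallest log2 difference that passed was 1.07, so smaller changes could be missed. MCF10.AT1 is a RAS-transformed, preneoplastic line of human breast epithelium, made from MCF10A. MCF10.AT1-R was derived from it by exposure to fluvastatin, a drug that blocks HMG-CoA reductase, in steps of 1, 5 and up to 20 µM. The MCF10.AT1 arrays are labelled as untreated cells, and both lines were grown in the same medium. Whether MCF10.AT1-R was in fluvastatin when its RNA was taken is not given in the sources used here, and the resistant cells are 1 derived line, so line, selection and any drug present at harvest cannot be told apart. The values are log2 intensities normalized by RMA, a method that corrects background, equalises the distribution of values across arrays and summarises the probes of a transcript. There were 3 arrays of each line, with A01, A02 and A03 for MCF10.AT1 and B02, B03 and B04 for MCF10.AT1-R. The study left out A03 as an outlier, and it is given apart here.

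Mevalonate is converted to isopentenyl and farnesyl diphosphate, the isoprene units from which sterols, prenyl anchors, coenzyme Q and dolichol are all built. Coenzyme Q is a lipid of the inner mitochondrial membrane that carries electrons to respiratory complex III and also acts as a membrane antioxidant. Its long tail is made by PDSS1 and PDSS2, joined to a benzoate ring by COQ2, and the ring is then modified by the other COQ enzymes. Dolichol is a longer isoprenoid of the endoplasmic reticulum on which the sugar tree for N-glycosylation is assembled, and its chain is made by DHDDS together with NUS1. Because statins act upstream of the split, both products depend on the supply of mevalonate.

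The promoter stretches of DHDDS, COQ2 and COQ5 are shown because these were the member with the largest positive difference and the pair whose arrays lay lower in MCF10.AT1-R without overlap, and that of MVD because this trunk enzyme had the largest change among the mevalonate genes. Each is the 250 bases before the start site, 5′ to 3′, from RefSeq on GRCh38.p14. Capitals mark matches, on either strand, to any of the 4 motifs searched, which were the sterol regulatory element TCACNCCAC bound by SREBP factors, the NRF1 motif (GCGCA, any base, then GCGC), the GABPA motif CCGGAAGT and the NFY motif CCAAT.
DHDDS, chr1:26432071-26432320, plus strand: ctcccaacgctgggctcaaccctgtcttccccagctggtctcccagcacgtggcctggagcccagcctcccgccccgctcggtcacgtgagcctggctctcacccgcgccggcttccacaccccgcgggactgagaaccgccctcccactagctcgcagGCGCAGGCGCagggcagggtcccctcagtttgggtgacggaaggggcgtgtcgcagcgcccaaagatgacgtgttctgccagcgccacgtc
COQ2, chr4:83284799-83285048, minus strand: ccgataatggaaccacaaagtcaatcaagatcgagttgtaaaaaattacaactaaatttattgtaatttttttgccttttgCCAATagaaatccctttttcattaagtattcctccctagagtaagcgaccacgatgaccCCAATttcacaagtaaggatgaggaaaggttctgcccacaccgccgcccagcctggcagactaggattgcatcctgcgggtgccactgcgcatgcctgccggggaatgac
COQ5, chr12:120529159-120529408, minus strand: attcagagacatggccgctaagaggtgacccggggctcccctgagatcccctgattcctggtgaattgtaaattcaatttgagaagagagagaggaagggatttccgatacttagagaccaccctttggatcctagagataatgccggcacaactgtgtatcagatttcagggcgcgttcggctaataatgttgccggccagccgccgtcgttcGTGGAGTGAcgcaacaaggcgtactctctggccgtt
MVD, chr16:88663092-88663341, minus strand: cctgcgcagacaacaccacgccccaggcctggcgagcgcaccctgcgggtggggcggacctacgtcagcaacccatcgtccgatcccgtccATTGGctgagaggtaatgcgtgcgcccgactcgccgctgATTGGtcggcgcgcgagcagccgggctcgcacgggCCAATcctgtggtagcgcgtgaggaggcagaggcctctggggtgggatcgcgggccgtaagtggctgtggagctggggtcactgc

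In these stretches DHDDS held 1 NRF1 match, COQ2 held 2 NFY matches, COQ5 held 1 match to the sterol regulatory element, and MVD held 3 NFY matches. RefSeq windows were matched for 9 of the 10 members, all except COQ3. Over these 9 genes the sterol regulatory element was found in 11.1% (1 gene), against 1.09% of all 27305 genes with a window, and COQ5, the gene that held it, was the lowest of the 10 in MCF10.AT1-R relative to MCF10.AT1. The NFY motif was found in 44.4% of the members (COQ2, COQ6, COQ7 and NUS1), in 83.3% of the 6 trunk genes with a window, in 88.9% of the 9 sterol branch genes with a window and in 37% of all genes. The NRF1 motif was found in DHDDS alone among the 9 and in 6.2% of all genes. The GABPA motif was found in none of the 9 and in 4.13% of all genes. These are matches of letters in a short window, and none of the 6 trunk windows held this form of the sterol regulatory element.

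The lines were compared over A01 and A02 against B02, B03 and B04. All 10 members passed the filter on low expression, a mean log2 value above 1.88, and 6 also passed the filter on invariant probe sets, an SD above 0.18. PDSS1, COQ3, COQ9 and NUS1 were removed as invariant, and their intervals come from a fit without a filter. Of the 6 tested members, 0 passed an FDR of 5% in limma, against 1.2% of the 51457 probe sets tested, and 0 had an unadjusted p under 0.05, against 8.26%. Without a filter all 10 were tested and 0 passed, against 0.13% of 135750 probe sets, and 1 (COQ5) had an unadjusted p under 0.05, against 6.7%. The median log2 difference of the 10 members, MCF10.AT1-R minus MCF10.AT1, was -0.06, beside -0.01 for all probe sets tested. The difference was positive for 4 members and negative for 6, and it ranged from -0.58 for COQ5 to 0.49 for DHDDS. For 2 of the 10, COQ2 and COQ5, every resistant array lay below every parental one, an order found for 11.1% of all transcript probe sets, and for 0 of the 10 above, an order found for 12.2%. Separation in either direction was found for 23.3% of all transcript probe sets, so 2 of 10 is near the background. For 6 of the 10 members the 95% interval of the difference lay within a 2-fold change in either direction. For PDSS2, COQ2, COQ5 and DHDDS the interval reached past 2-fold in the fit after both filters, so a change of that size cannot be told from none in that fit. In the fit without a filter, used for the 4 invariant members, COQ2 lay within 2-fold at -0.87 to 0.08. There COQ5 ran from -1.03 to -0.12, and PDSS2 and DHDDS again reached past 2-fold. The width of an interval thus depended on the variance model as well as on the number of arrays.

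**Figure D1:**
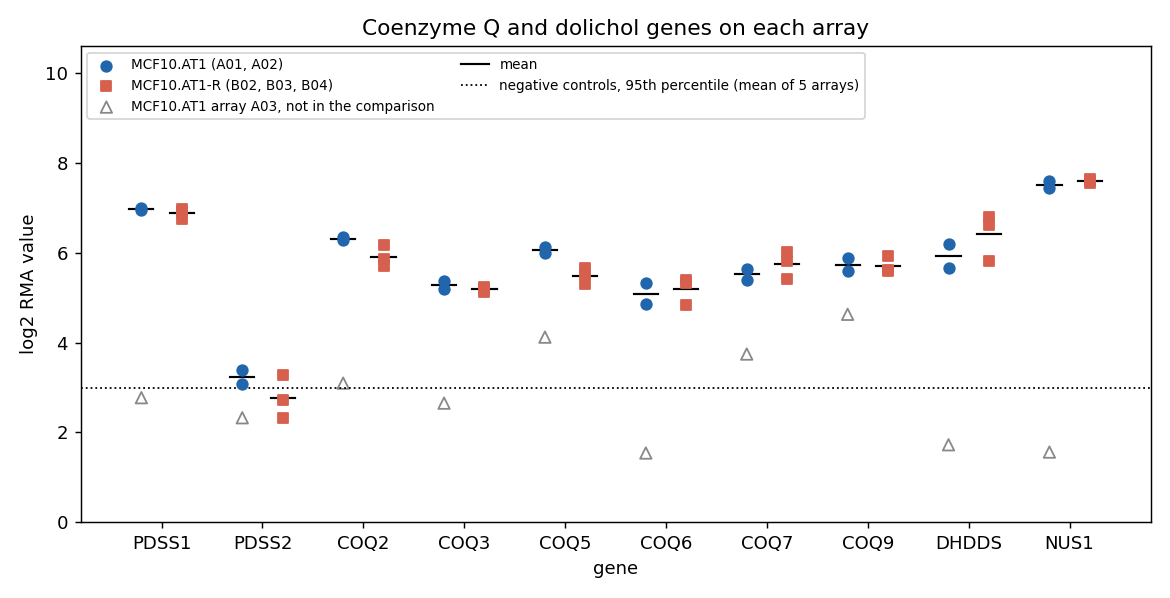
The log2 RMA value (vertical axis) of each of the 10 genes (horizontal axis) on each array, with MCF10.AT1 as circles, MCF10.AT1-R as squares, the mean of each line as a bar, A03 as open triangles and the 95th percentile of the negative controls as a dotted line. The symbols of the lines separate only for COQ2 and COQ5, PDSS2 lies at the dotted line, and A03 lies below the other arrays for 9 of the 10 genes.

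The tail of coenzyme Q is made by a heteromer of PDSS1, the catalytic subunit of decaprenyl diphosphate synthase, and PDSS2, its partner. PDSS1 read 6.99 on A01 and 6.94 on A02, and 6.97, 6.74 and 6.91 on B02, B03 and B04. The resistant arrays lay within and just below the range of the parental ones, and the difference was -0.09 (95% interval -0.52 to 0.33, adjusted p = 0.956 from limma without a filter). PDSS2 read 3.40 and 3.09 in MCF10.AT1 and 2.32, 2.73 and 3.28 in MCF10.AT1-R. It was the dimmest of the probe sets, since 3 of its 5 values lay above the 95th percentile of the negative controls on their own array and B02 and B03 lay under it. Its difference of -0.47 (95% interval -1.08 to 0.14, adjusted p = 0.77 from limma) shrank to -0.16 when values under the level of the negative controls, 2.99, were raised to it. The lines overlapped for both subunits.

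COQ2, the prenyltransferase that joins the tail to the ring in the mitochondrial membrane, read 6.34 and 6.27 in MCF10.AT1. In MCF10.AT1-R it read 5.70, 6.16 and 5.86. All 3 resistant arrays lay below both parental arrays, with B03 the closest. The parental mean was 6.31 ± 0.05 (SD, n = 2), the resistant mean was 5.91 ± 0.24 (SD, n = 3), and the log2 difference of -0.40 had a 95% interval of -1.01 to 0.21 (adjusted p = 0.813 from limma). The difference was larger than the SD within either line but did not pass the test.

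Ring modification needs a set of enzymes that sit together on the matrix side of the inner membrane. COQ5, the methyltransferase that adds the carbon-linked methyl group, had the largest difference of the 10 genes over the 5 arrays. It read 6.0 and 6.13 in MCF10.AT1 and 5.66, 5.29 and 5.52 in MCF10.AT1-R, so every resistant array lay below every parental array. The mean was 6.07 ± 0.10 (SD, n = 2) and 5.49 ± 0.18 (SD, n = 3), and the log2 difference was -0.58, which is 1.49-fold on the linear scale. Its 95% interval in limma with the common SD was -1.19 to 0.03 (adjusted p = 0.65), and without a filter, where each probe set keeps more of its own variance, it was -1.03 to -0.12 (unadjusted p = 0.0184 and adjusted p = 0.645 from limma). With each array left out in turn the COQ5 difference stayed between -0.66 and -0.48. DHDDS exceeded it in size without A01 or B03, and COQ2 (-0.53) without B03. PDSS2 exceeded it without A02 (-0.62) or B04 (-0.72). COQ5 did not pass the FDR threshold in any of these fits.

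COQ3, the methyltransferase that acts on the ring oxygens, read 5.37 and 5.20 in MCF10.AT1 and 5.20, 5.24 and 5.12 in MCF10.AT1-R. The values of the lines overlapped and the difference was -0.10 (95% interval -0.52 to 0.32 from limma without a filter). COQ6, a flavin hydroxylase of the ring, read 5.33 and 4.85 in MCF10.AT1 and 5.39, 4.84 and 5.32 in MCF10.AT1-R. Its spread within each line, with SDs of 0.34 and 0.30, was larger than the difference of 0.09 (95% interval -0.52 to 0.71, adjusted p = 0.946 from limma). COQ7, the hydroxylase of the next to last step, read 5.39 and 5.63 in MCF10.AT1 and 5.41, 6.02 and 5.82 in MCF10.AT1-R. B02 lay between the parental arrays and B03 and B04 above them, with a difference of 0.24 (95% interval -0.37 to 0.85, adjusted p = 0.857 from limma). COQ9, the lipid-binding protein that works with COQ7, read 5.58 and 5.87 in MCF10.AT1 and 5.59, 5.62 and 5.92 in MCF10.AT1-R. Its ranges nearly coincided, and its difference of -0.02 (95% interval -0.49 to 0.45 from limma without a filter) was the smallest of the 10.

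Among the 8 coenzyme Q genes, 2 differences were positive and 6 negative, with a median of -0.10. The pair of methyltransferases did not move alike in size, with COQ5 at -0.58 and COQ3 at -0.10, but the difference between them was not tested.

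DHDDS is the catalytic subunit of the cis-prenyltransferase that extends farnesyl diphosphate into the dolichol chain, and NUS1 is the subunit that it needs for activity. DHDDS read 6.18 and 5.66 in MCF10.AT1 and 6.80, 5.82 and 6.61 in MCF10.AT1-R. B02 and B04 lay above both parental arrays and B03 lay between them. The mean was 5.92 ± 0.37 (SD, n = 2) and 6.41 ± 0.52 (SD, n = 3), and the log2 difference of 0.49 (95% interval -0.12 to 1.10, adjusted p = 0.75 from limma) was smaller than the SD of MCF10.AT1-R. The residual SD of DHDDS, 0.48, was the highest of the 10. Its difference depended on single arrays, at 0.23 without A02, 0.29 without B02, 0.75 without A01 and 0.78 without B03. DHDDS and COQ6 shared A02 and B03 as their lowest pair of arrays, an order found for 10.2% of the probe sets tested.

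NUS1 read 7.58 and 7.44 in MCF10.AT1 and 7.54, 7.64 and 7.60 in MCF10.AT1-R, the smallest residual SD of the 10 at 0.07. The lines overlapped, and the difference was 0.08 (95% interval -0.34 to 0.50, adjusted p = 0.962 from limma without a filter). Both dolichol subunits were thus positive in sign, at 0.49 and 0.08, and neither was past the threshold. NUS1 has processed copies in the genome that can share probe sequence with it, and the probe sets annotated to them read steadily on the same arrays. The NUS1P3 probe set read 6.98 and 7.33 in MCF10.AT1 and 7.22, 7.28 and 7.22 in MCF10.AT1-R, a difference of 0.09. The 2 probe sets of NUS1P1 differed by -0.17 and -0.07. How much of the NUS1 signal comes from these copies was not tested. The copies of PDSS1, PDSS1P1 and PDSS1P2, lay within the negative controls on all 5 arrays.

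**Figure D2:**
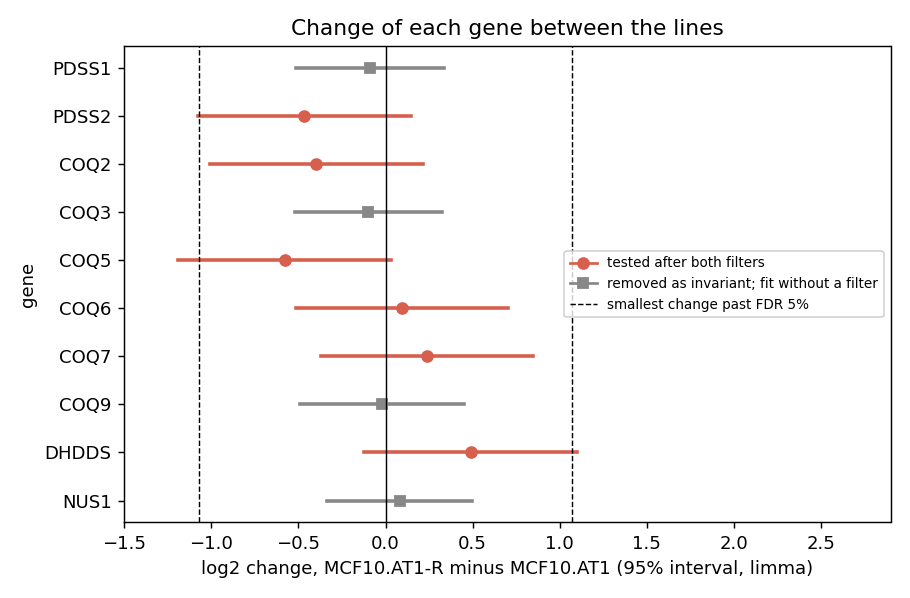
The log2 difference between the lines (horizontal axis, MCF10.AT1-R minus MCF10.AT1) with its 95% interval from limma for each of the 10 genes (vertical axis), as circles for the 6 genes tested after both filters and as squares for the 4 removed as invariant. The dashed lines stand at 1.07 on either side, the smallest change that passed an FDR of 5%, and every point lies inside them.

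On the parental array A03 the same genes read far lower. Its values for the 10 members ran from 1.54 to 4.63, and 9 of the 10 lay below all 5 other arrays, against 15.6% of all transcript probe sets and 36% of those above the negative controls on all 5 arrays. The exception was PDSS2, which read 2.32 on both A03 and B02. DHDDS read 1.72, NUS1 1.56 and COQ6 1.54 on A03, all within its negative controls, and COQ5, COQ7 and COQ9 were the 3 members above them, at 4.12, 3.74 and 4.63. The median difference of the members on A03 from the mean of A01 and A02 was -2.92. The lists described next had median differences there of -4.40 for the mevalonate trunk, -5.55 for the sterol branch, -4.18 for the dolichol phosphate genes, -4.90 for mitochondrial mass, -3.12 for the coenzyme Q users, -2.12 for prenyl transfer and -1.29 for the further coenzyme Q genes. The 6 probe sets annotated to NUS1 and PDSS1 copies all read higher on A03 than on any other array, as did 44% of all transcript probe sets. With A03 counted as MCF10.AT1 the median difference of the members became 0.80 and 9 of 10 were positive, with none past an FDR of 5%.

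**Figure D3:**
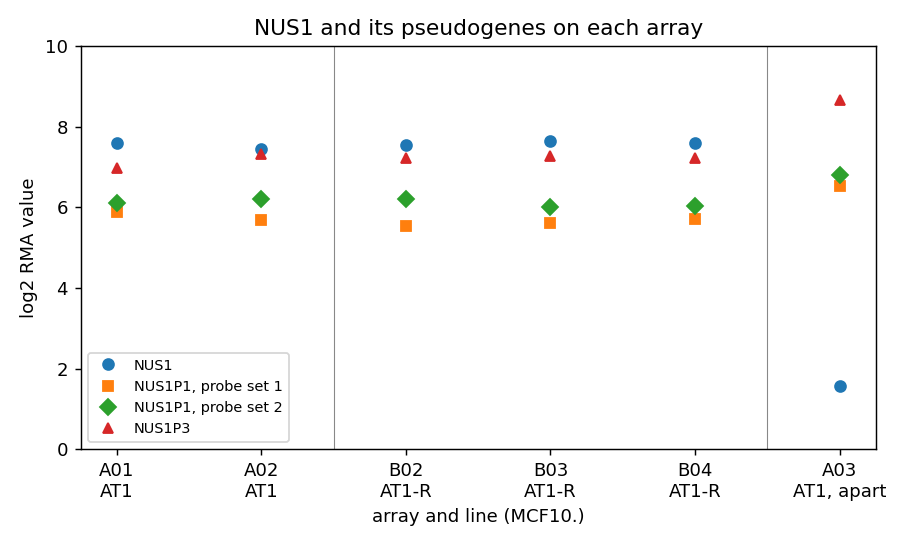
The log2 RMA value (vertical axis) of NUS1, of the 2 NUS1P1 probe sets and of NUS1P3 on each array (horizontal axis, grouped by line with A03 last). NUS1 read 7.44 or more on the 5 arrays and 1.56 on A03, while NUS1P3 read 8.66 there, above its 6.98 to 7.33 elsewhere.

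The rest of coenzyme Q synthesis was followed in 8 further genes, COQ4, COQ8A, COQ8B, COQ10A, COQ10B, HPDL, FDXR and FDX2, and 0 of the 6 tested passed the threshold. Their median log2 difference was 0.08. COQ10B, a coenzyme Q chaperone, was the highest at 0.32, with every resistant array above the parental ones. COQ4, a scaffold and enzyme of the ring complex, was the lowest at -0.16, with every resistant array below the parental ones. These orders were found for 12.2% and 11.1% of all transcript probe sets. Of 12 genes of enzymes that use coenzyme Q, 0 of the 8 tested passed, and the median was -0.13 with 10 of 12 negative. SDHA, SDHB, SDHC and SDHD among them encode subunits of a single enzyme, and CHDH lay within the negative controls on all 5 arrays. The arrays lay lower in MCF10.AT1-R without overlap for 5 of these 12, SDHA and SDHD included, against 11.1% of all transcript probe sets. DHODH, which passes electrons from pyrimidine synthesis to coenzyme Q, was 1 of these 5 and the lowest of the 12 at -0.57. It went from 5.22 ± 0.20 (SD, n = 2) to 4.65 ± 0.20 (SD, n = 3), with an adjusted p of 0.659 from limma. GPD2, the glycerol phosphate dehydrogenase of the same membrane, was the highest at 0.21. The 8 genes chosen for mitochondrial mass had a median of 0.04 and were all removed as invariant, between CS at -0.11 and SLC25A3 at 0.19. Every resistant array lay above every parental one for 3 of these 8, against 12.2% of all transcript probe sets, and below for 0.

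Downstream of dolichol, 21 genes that form dolichol phosphate or load it with sugars had a median of -0.15, and 18 of 21 were negative. Of these, 10 were tested and 0 passed an FDR of 5%. The arrays lay lower in MCF10.AT1-R without overlap for 6 of the 21, against 11.1% of all transcript probe sets. DPAGT1, which puts the first sugar on dolichol phosphate, had the lowest value at -0.54, from 7.02 ± 0.05 (SD, n = 2) to 6.48 ± 0.18 (SD, n = 3), with an adjusted p of 0.692 from limma. DPM3, a subunit of dolichol phosphate mannose synthase, had the highest at 0.08. When the variance was allowed to follow the expression level, ALG3, a mannosyltransferase of the same pathway, passed, with -0.51 on the log2 scale (adjusted p = 0.00624, limma with trend), as did NQO1, a quinone reductase among the coenzyme Q users, at -0.51. These 2 genes are named after their values were seen, and 2.68% of the probe sets passed in that fit, but 0 of the 10 members. COQ5 and DHDDS, 2 of the 6 members tested, had an unadjusted p under 0.05 there, against 9.85% of the probe sets.

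The trunk and the sterol branch stood at other levels in the same comparison. All 8 trunk genes from ACAT2 to FDPS were positive, with a median of 0.95, and 2 passed an FDR of 5%, against 0.758% of the probe sets tested for higher and 0.447% for lower calls. These were MVD, the decarboxylase that yields isopentenyl diphosphate, at 1.69 (adjusted p = 1.82e-05 from limma), and HMGCS1, the HMG-CoA synthase, at 1.57 (adjusted p = 0.000121 from limma). PMVK was the lowest of the trunk at 0.17. With the variance following the expression level, 6 of the 8 trunk genes and 9 of the 11 sterol branch genes tested passed, against 2 and 1 with the common SD. Of all probe sets tested, 2.68% passed in that fit. Every resistant array lay above every parental one for 7 of the 8 trunk genes and for 12 of the 12 sterol branch genes. This order was found for 0 of the 10 members and for 12.2% of all transcript probe sets. All 12 sterol branch genes were positive, with a median of 0.76, from FDFT1 at 0.27 to TM7SF2, a sterol reductase, at 1.27 (adjusted p = 0.00642 from limma). The 6 genes of GGPP synthesis and prenyl transfer had a median of -0.07, with RABGGTA highest at 0.60 (adjusted p = 0.618 from limma, 0.0266 with trend), FNTB lowest at -0.17 and 0 of the 4 tested past the threshold. For 2 of these 6 prenyl genes every resistant array lay above every parental one, against the same 12.2%, and for 0 below. The steps share the same arrays, so these lists are set side by side and the differences between lists were not tested.

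**Figure D4:**
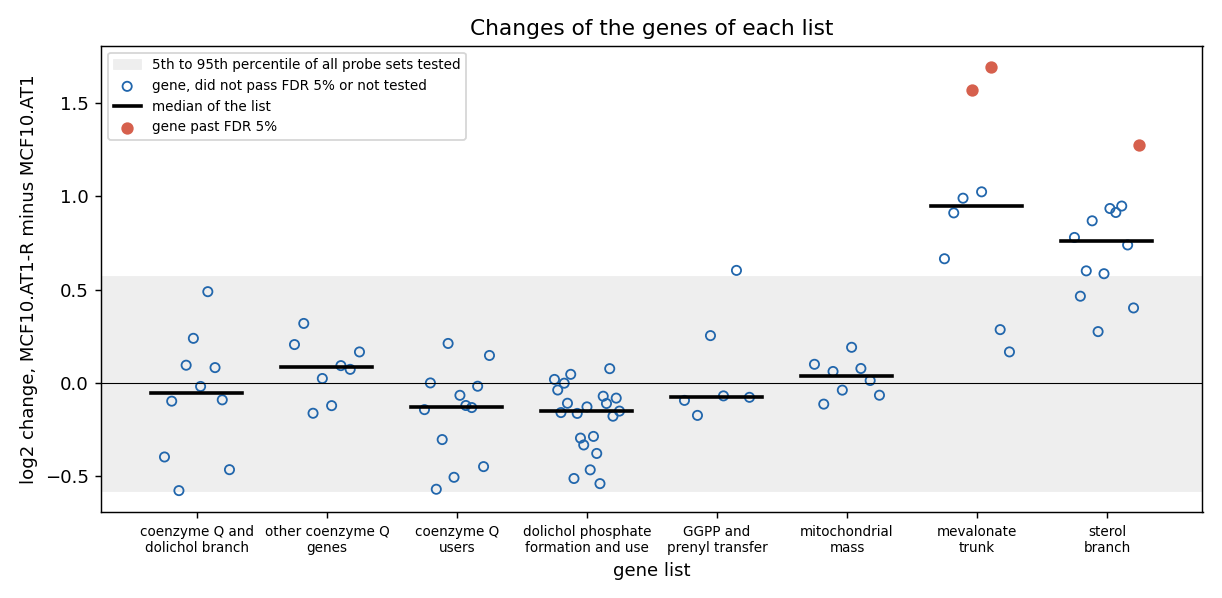
The log2 difference between the lines (vertical axis) of every gene of 8 lists (horizontal axis), with list medians as bars, genes past an FDR of 5% filled and the 5th to 95th percentile of all probe sets tested, -0.58 to 0.57, shaded. The coenzyme Q and dolichol genes lie inside the shaded band, with a median of -0.06 and with COQ5, at -0.58, at its lower edge. The trunk and sterol medians lie above the band at 0.95 and 0.76. Over all transcript probe sets, with no filter, the same percentiles were -0.47 and 0.47, and COQ5 and DHDDS (0.49) lie outside them.

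The lines differed in cell type markers as well. All 7 epithelial markers, KRT5, KRT14, KRT17, TP63 and LAMB3 of basal cells and the more general CDH1 and EPCAM, were above the negative controls on all 5 arrays, and 6 of them rose in MCF10.AT1-R at an FDR of 5% (EPCAM, at 0.78, did not pass), with KRT17 at 4.08. Their summed linear level was 943.1 to 1004 in MCF10.AT1 and 4039 to 4561 in MCF10.AT1-R. Of 6 fibroblast markers, LUM and PDGFRB lay within the controls on all 5 arrays, COL1A1 and COL1A2 lay above them, and DCN fell by 2.15. The sum over these 6 was 229.8 to 279.3 in MCF10.AT1 and 231.5 to 248.8 in MCF10.AT1-R. The leukocyte marker PTPRC lay within the controls. Of the 4 markers of cornifying keratinocytes KRT1 passed, at 1.10, and KRT10, at 0.58, did not (adjusted p = 0.648 from limma). LOR, at -0.14, was above the controls on 1 of the 5 arrays, and FLG lay within them. In bulk RNA a change in the kind of cells and a change in RNA per cell cannot be told apart, and the part of these markers in the values of the 10 genes was not tested.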

How the data were processed

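Clariom D arrays measured total RNA from 3 cultures of each line. The authors made and deposited log2 values by RMA with the Bioconductor packages affy and oligo (versions not given in the sources used here), over all 6 arrays and with no filter on low or invariant probe sets. The line of each array was taken from the array names as the study's principal component plot marks them, since the names carry no replicate number. The deposited table holds 135750 transcript and 2995 control probe sets.

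Following the study's methods, A03 was left out and probe sets with low means (at or below the median, 1.88) or low SDs (the lowest 25%, up to 0.18) over the 5 arrays were removed. These limits were chosen here. The remaining 51457 entered a linear model in limma 3.58.1 under R 4.3.3 (lmFit, then eBayes), two-sided, with Benjamini-Hochberg adjustment and an FDR of 5%. After this filter limma used 1 common SD of 0.34. Tested on simulated data, the fit missed most 2-fold changes, recovered most 4-fold ones and gave more false calls than the nominal FDR. The probe set with the highest mean stood for a gene. Members, gene lists and motifs were chosen with earlier results of these data known. All members are named, with list genes past the threshold or at a list's extremes. Alternatives changed the arrays, weights, filters, variance model, normalization and probe set rule. A floor at the negative controls was chosen after seeing the data. Correlations between the 5 arrays were 0.967 to 0.977 and those of A03 with them 0.779 to 0.795. The number of arrays limits the precision, and the cultures come from 1 line each. With a common SD, the p-values of the main fit follow the size of a difference, not a gene's own spread between cultures. The smallest difference that passed there was 1.07 on the log2 scale. Array coordinates are not given, since the build of the probe sets is not named. Promoter coordinates are those of RefSeq. Figures were drawn with matplotlib 3.10.9.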

Additional observations from a re-analysis of the deposited data

Results flagged for a closer look

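Of 6 probe sets annotated to copies of NUS1 and PDSS1, 4 read above the negative controls on A03, the array left out of the comparison, and higher there than on any other array. Of all transcript probe sets, 44% were highest on A03. NUS1P3 read 8.66 on A03 and at most 7.33 elsewhere. The NUS1P1 probe sets read 6.54 and 6.80 on A03 and at most 5.89 and 6.20 elsewhere. PDSS1P1 read 3.48 on A03 and at most 2.29 elsewhere. A cause was not tested.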

How the results depend on the processing

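None of the 10 members passed an FDR of 5% in limma under any of the 15 alternatives, and at an unadjusted p under 0.05 the count was 0 of 6 tested with both filters, 1 of 10 without a filter and 2 of 6 with the trend option. The shares of all probe sets in these fits, in the same order, were 8.26%, 6.7% and 9.85%. With invariant probe sets kept and the trend option, COQ5 had an unadjusted p of 0.00424 and COQ2 of 0.0317 (limma). Their adjusted p there were 0.15 and 0.41, and the share of all probe sets under 0.05 was not counted for that fit. The filters, the variance model and the probe set rule cannot move a member's difference. Of 91 differences that the other settings moved, 81 kept their direction and 10 reversed. With A03 added, PDSS1 became 1.31, COQ2 0.67, COQ3 0.78, COQ5 0.071 and COQ9 0.35, and the median of the members 0.80. With single arrays left out, COQ6 ranged from -0.15 to 0.34, COQ9 from -0.17 to 0.13 and the median of the members from -0.13 to -0.00029. The signs of COQ6 and COQ9 reversed there (COQ6 at -0.15 without A02 and -0.01 without B02, COQ9 at 0.13 without A02, 0.04 without B02 and 0.02 without B03). The count of all probe sets past an FDR of 5%, 620, became 26 with A03 added, 177 without a filter, 1377 with the trend option, 182 when invariant probe sets were kept, 1086 with both of these last settings and 272 with the floor, and lay between 271 and 595 with single arrays left out (314 without A01, 271 without A02). A lone MCF10.AT1 array was taken to have the spread of the resistant ones. The share of higher calls, 62.9%, was 80.8% in the fits without a filter and with invariant probe sets kept 80.1% with the floor and 100% with A03 added. No paired analysis was possible because the array names carry no replicate number.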
